A study of Mus musculus with 7 samples.

Results

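The genes that make, load, take up and break down the inhibitory transmitter GABA were examined in kisspeptin cells of the mouse anteroventral periventricular nucleus (AVPV), a small cell group of the preoptic hypothalamus. The 6 genes were chosen by symbol from 55384 listed genes: Gad1, Gad2, Slc32a1, Slc6a11, Abat and Aldh5a1. Female C57BL/6 mice of the genotype Kiss1Cre+/Rpl22HA+/+ were used in both groups. In such RiboTag mice, Cre recombinase made under Kiss1 control switches on an HA tag on the ribosomal protein Rpl22, and RNA bound to tagged ribosomes is pulled down with an antibody. Any cell in which the Cre has acted carries the tag, whether or not it still makes kisspeptin. The GDX group comprised 4 libraries of ovariectomized females that had no estradiol, and the E2 group comprised 3 libraries of estradiol-treated females. Per the labels, each library came from micropunches pooled over 4 brains. Whether the estradiol-treated females were also ovariectomized, the dose and duration of estradiol and the age of the mice were not given in the sources used here.

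Glutamate decarboxylase converts glutamate to GABA with pyridoxal phosphate as cofactor, and it exists as GAD67, encoded by Gad1, and GAD65, encoded by Gad2. GAD67 is found through the cell body and is mostly active with its cofactor bound, whereas GAD65 is concentrated at nerve terminals on membranes and is held in large part as inactive enzyme without cofactor. Slc32a1 encodes VGAT, which loads GABA into synaptic vesicles, and Slc6a11 encodes GAT3, a plasma membrane GABA transporter found mainly on astrocytes. Abat encodes GABA transaminase, which turns GABA into succinic semialdehyde, and Aldh5a1 encodes the dehydrogenase that passes this product on to the citric acid cycle. AVPV kisspeptin neurons respond to estradiol, project to the neurons that release gonadotropin-releasing hormone, and many of them also carry GABA markers.

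The question was which of these genes differ between E2 and GDX and whether their proportions differ. Gad1 and Gad2 encode the same enzyme activity, so their upstream sequences are shown first. Each is a window of 128 bases, from 250 to 123 bases before the RefSeq gene start, 5′ to 3′ on the gene's strand, in build GRCm38.p6; RefSeq entries were matched for 5 of the 6 genes, all but Abat. The motif GGTCA, the core of the estrogen response element, was searched on both strands (as GGTCA and TGACC), and matches are in capitals. The Gad2 window is chr2:22622077-22622204, plus strand, and the Gad1 window is chr2:70561879-70562006, plus strand, within the longer span that GENCODE gives the gene.
Gad2: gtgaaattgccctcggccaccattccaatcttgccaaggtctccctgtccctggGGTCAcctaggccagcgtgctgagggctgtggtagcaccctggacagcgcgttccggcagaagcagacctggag
Gad1: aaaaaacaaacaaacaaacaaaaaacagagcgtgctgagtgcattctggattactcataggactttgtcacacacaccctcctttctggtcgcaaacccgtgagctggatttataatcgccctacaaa
The Gad2 window held 1 match and the Gad1 window held 0. Slc6a11 is shown as well because it held 2 matches, at chr6:114130991-114131118, plus strand.
Slc6a11: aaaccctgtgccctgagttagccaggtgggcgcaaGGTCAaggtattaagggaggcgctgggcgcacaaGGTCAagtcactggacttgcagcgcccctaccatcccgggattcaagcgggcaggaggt
The windows of Slc32a1 and Aldh5a1 held 0 matches. The motif occurred in 19.9% of the same windows of 32851 RefSeq promoters, and at least 2 matches occurred in 2.44%. The full palindrome GGTCANNNTGACC occurred in 10 of them (0.0304%) and in 0 of the 5 windows searched here. A short motif at this frequency describes the letters only, and binding was not measured.

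The libraries held 29207544 to 36213127 counts. All 6 genes passed the filter on low counts, with 4112 to 32766 expected counts per gene and library. Counting error was not compared with the spread between libraries. The 4 kisspeptin cell markers (Kiss1, Esr1, Pgr and Th) were detected in every library, with a summed level of 520 to 737 CPM (counts scaled to library size with TMM factors) in GDX and 1220 to 1351 CPM in E2. Kiss1, Pgr and Th were called higher in E2, whereas Esr1, the estrogen receptor alpha gene, had a lower mean (255 ± 36.8 CPM in GDX, 194 ± 16.8 CPM in E2, SD; log2 fold change -0.39, edgeR adjusted p = 0.0901). Markers of other cells were detected as well, none at 0 in any library. GDX replicates 1 and 4 stood apart from the other libraries by their astrocyte and endothelial markers. Gfap, an astrocyte filament gene, was at 1323 and 1765 CPM in these libraries, at 313 and 356 CPM in GDX replicates 2 and 3, and at 163 to 203 CPM in E2. All 11 astrocyte markers had a lower mean in E2, and none of them passed the test in edgeR. The astrocyte score, the mean log2 CPM of these markers, was 6.42 to 7.38 in GDX and 6.05 to 6.29 in E2, so the groups did not overlap (two-sided exact permutation p = 0.0857, n = 4 and 3). Their summed level was 1629.5 to 3737 CPM in GDX and 1303 to 1519 CPM in E2. All 6 endothelial markers had a lower mean in E2, with scores of 4.70 to 6.05 in GDX and 3.90 to 4.66 in E2 that did not overlap (exact permutation p = 0.0571) and summed levels of 313 and 446 CPM in GDX replicates 1 and 4, 175 to 203 CPM in the other GDX libraries and 101 to 169 CPM in E2. All 5 ependymal markers had a lower mean in E2 too, with 1 of them called, and their scores overlapped, at 3.13 to 4.05 in GDX and 2.04 to 3.18 in E2 (exact permutation p = 0.0857). Each of these p-values is 0.137 when adjusted over the 8 marker scores. The score of 6 neuron markers overlapped, at 8.34 to 8.53 in GDX and 8.49 to 8.59 in E2 (exact permutation p = 0.229, adjusted p = 0.305). Of these markers, 1 was called higher in E2, Elavl4 (log2 fold change 0.51, edgeR adjusted p = 0.00392), and 3 had a lower mean in E2. The part of endothelial and ependymal RNA in the results was not tested apart from a score of all non-neuronal markers, which includes the endothelial ones. In pulled-down RNA, fewer cells of a type, less RNA per cell and less untagged RNA carried along cannot be told apart.

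Gad2 rose with estradiol, while Gad1 did not pass the test. Gad2 (ENSMUSG00000026787, GRCm38 chromosome 2, 22622205 to 22693874, plus strand, protein-coding) was at 708, 732, 673 and 797 CPM in the 4 GDX libraries and at 1010.0, 983 and 956 CPM in the 3 E2 libraries. Every E2 library lay above every GDX library, with a gap of 158 CPM between the groups. The means were 728 ± 52.5 CPM (SD, n = 4) and 983 ± 27.2 CPM (SD, n = 3), a ratio of 1.35. The log2 fold change, E2 over GDX, was 0.43 ± 0.071 (SE; 95% interval 0.28 to 0.59; edgeR quasi-likelihood test, adjusted p = 0.00386). Over 20 alternative settings, Gad2 kept its direction and its call, with log2 fold changes of 0.37 to 0.51 and adjusted p of 3.69e-06 to 0.0314. Without GDX replicates 1 and 4, the libraries with high astrocyte markers, the log2 fold change was 0.48 (edgeR adjusted p = 0.0012). With the astrocyte score as a covariate it was 0.51 (edgeR adjusted p = 0.0093), and with the score of all non-neuronal markers it was 0.49 (edgeR adjusted p = 0.0300). The non-neuronal score was 5.60 to 6.29 in GDX and 5.33 to 5.56 in E2, so neither score overlapped between the groups. A fit with either covariate can therefore not fully separate the score from the group, for any gene. Such fits called 2.41% of all genes with the astrocyte score and 1.77% with the non-neuronal score.

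Gad1 (ENSMUSG00000070880, chromosome 2, 70553072 to 70602014, plus strand, protein-coding) was at 642, 651, 667 and 659 CPM in GDX and at 706, 719 and 670.2 CPM in E2. The groups did not overlap, but the gap between the highest GDX and the lowest E2 library was 3.66 CPM, and E2 replicate 3 lay close to the GDX libraries. The means were 655 ± 10.4 CPM (SD, n = 4) and 699 ± 25.4 CPM (SD, n = 3). The log2 fold change was 0.094 ± 0.060 (SE; 95% interval -0.038 to 0.22; edgeR adjusted p = 0.487), so the interval holds 0 and ends below the lower bound for Gad2. Summed over both genes, the decarboxylase RNA was 1382 ± 52.7 CPM (SD, n = 4) in GDX and 1681 ± 48.7 CPM (SD, n = 3) in E2.

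**Figure D1:**
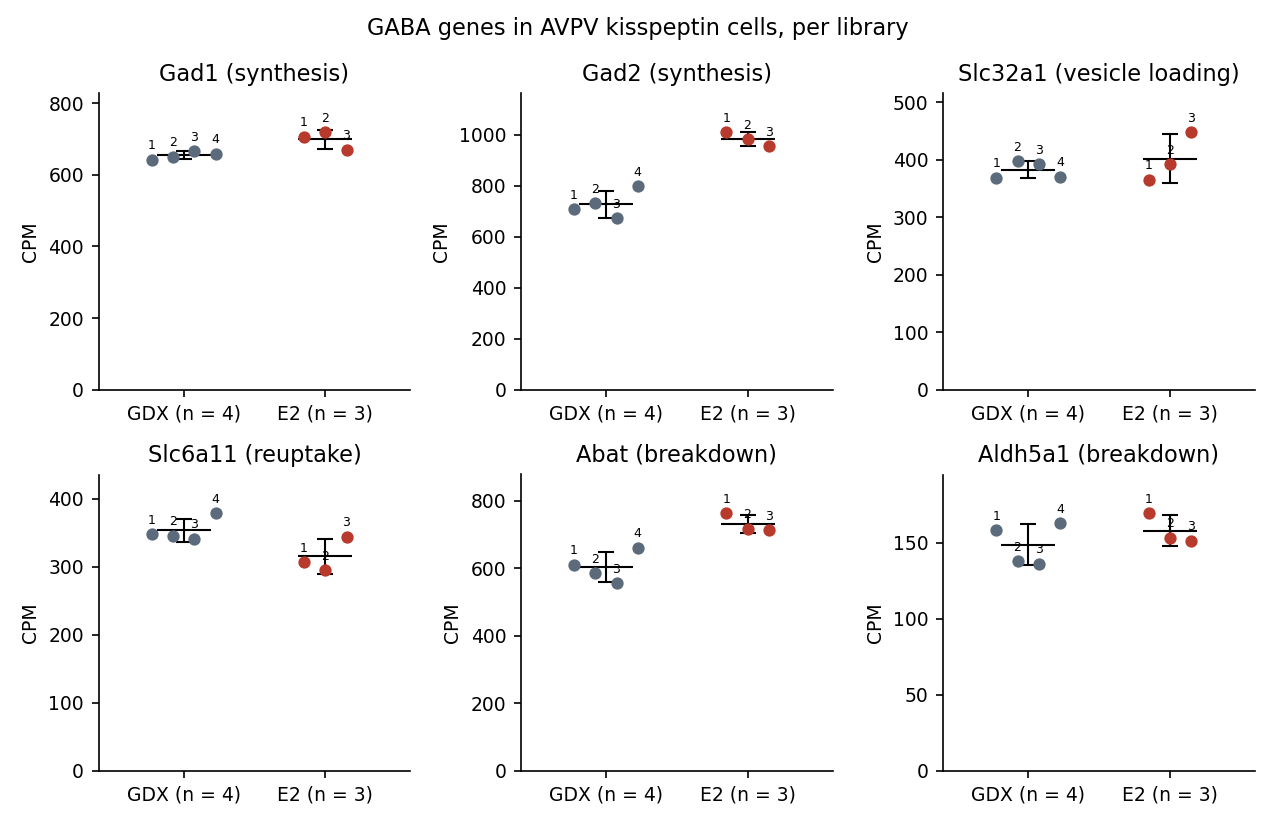
CPM (y axis, from 0) of the 6 GABA genes in each of the 4 GDX (grey) and 3 E2 (red) libraries, numbered by replicate; the horizontal line is the mean and the bar the SD. The E2 libraries lie above all GDX libraries for Gad2 (956 to 1010.0 against 673 to 797 CPM), Abat and, by 3.66 CPM, Gad1, and the groups overlap for Slc32a1, Slc6a11 and Aldh5a1.

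Of the 6 genes, 1 rose and 0 fell at an adjusted p under 0.05 in edgeR. Over all 18282 genes tested, 3.88% were called, 2.55% as higher and 1.33% as lower in E2. At an unadjusted p under 0.05, 2 of the 6 were higher and 1 was lower. The share of all genes at that threshold was not taken, so these counts have no background to be read against. DESeq2 and limma-voom each called 2 higher and 0 lower, beside 7.66% and 5.92% of all genes tested. The groups did not overlap for 3 of the 6 genes, Gad1, Gad2 and Abat, against 16.5% of all genes tested. The median log2 fold change of the 6 was 0.090, and that of all genes tested was 0.0040.

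The proportion of Gad1 to Gad2 within a library was lower in every E2 library than in any GDX library. A ratio within a library does not depend on library size or scaling. The ratio of expected counts was 0.908, 0.889, 0.991 and 0.827 in GDX and 0.699, 0.731 and 0.701 in E2. The E2 values lay close together, and GDX replicate 4, the lowest of its group, was still above them. The means were 0.903 ± 0.0676 (SD, n = 4) and 0.711 ± 0.0180 (SD, n = 3), a log2 difference of -0.34. The two-sided exact permutation p was 0.0286, the smallest that 35 splits of 7 libraries can give, and 0.0714 adjusted over the 5 ratios computed, so no ratio could pass an adjusted threshold of 0.05 in this design unless several reached that smallest value. Without GDX replicates 1 and 4 the log2 difference was -0.40 (exact permutation p = 0.1, the smallest for 2 against 3 libraries). Scaled per kilobase of exon, the ratio was 0.695 in GDX and 0.547 in E2, and per kilobase of coding sequence it was 0.875 and 0.688, so Gad2 was the more abundant of the pair on each of these scales in both groups.

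**Figure D2:**
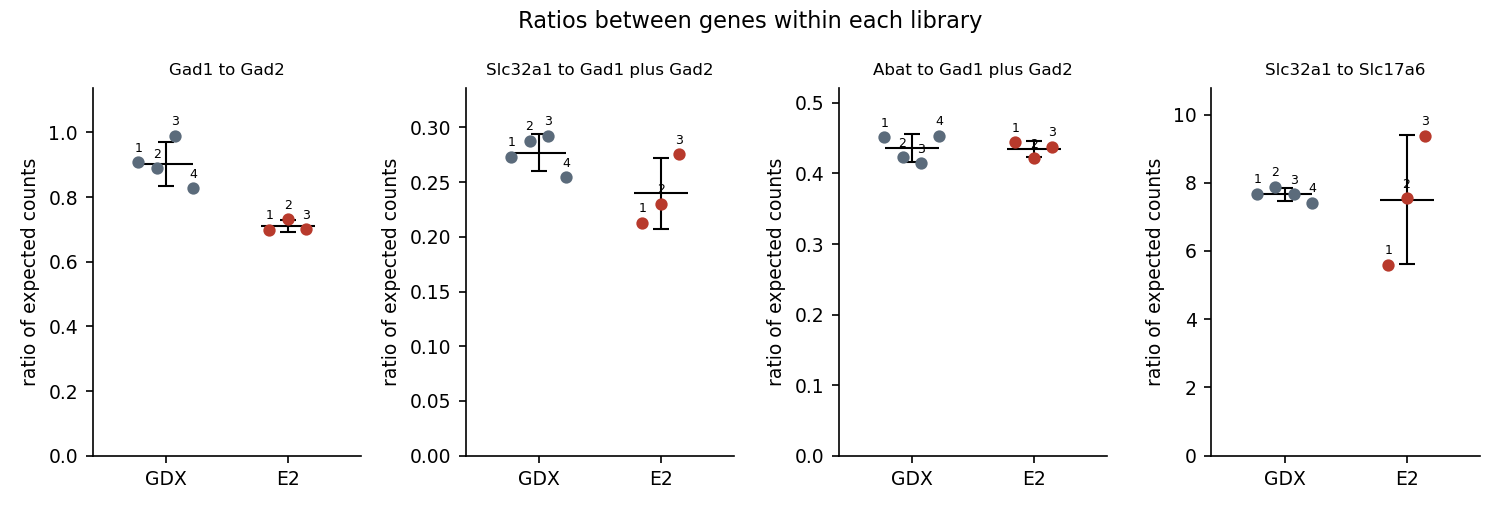
Ratios of expected counts between genes (y axes, from 0) in each of the 4 GDX (grey) and 3 E2 (red) libraries, numbered by replicate, with mean and SD. Gad1 to Gad2 is lower in all 3 E2 libraries (0.699 to 0.731) than in all 4 GDX libraries (0.827 to 0.991), and the groups overlap for Abat and Slc32a1 relative to the sum of Gad1 and Gad2 and for Slc32a1 relative to Slc17a6.

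Slc32a1, the vesicular transporter gene, did not differ beyond its spread. Slc32a1 (ENSMUSG00000037771, chromosome 2, 158610767 to 158615748, plus strand, protein-coding) was at 369, 398, 392 and 371 CPM in GDX and at 365, 392 and 448 CPM in E2. E2 replicate 3 was the highest of all libraries and E2 replicate 1 the lowest, so the groups overlapped. The means were 382 ± 14.7 CPM (SD, n = 4) and 402 ± 42.1 CPM (SD, n = 3), with a log2 fold change of 0.072 ± 0.078 (SE; 95% interval -0.099 to 0.24; edgeR adjusted p = 0.731). Without E2 replicate 3 it was -0.015 (edgeR adjusted p = 0.959). Slc32a1 shares 697 bases of exon with the antisense gene Gm14205 and the libraries carry no strand, so their reads cannot be told apart there; Gm14205 was at 1.09 CPM without TMM scaling in GDX and was listed at 0 in E2.

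Relative to the decarboxylase genes, Slc32a1 was at 0.273, 0.288, 0.293 and 0.255 of the summed Gad1 and Gad2 counts in GDX and at 0.213, 0.230 and 0.276 in E2. E2 replicates 1 and 2 were below all GDX libraries and E2 replicate 3 lay among them. The log2 difference was -0.22 (exact permutation p = 0.143, adjusted p = 0.238 over 5 ratios). Slc17a6 encodes VGLUT2, which loads glutamate into vesicles. Slc32a1 counts were 7.68, 7.88, 7.66 and 7.41 times those of Slc17a6 in GDX and 5.60, 7.54 and 9.38 times in E2. The E2 values lay on both sides of the GDX values, with a log2 difference of -0.060 (exact permutation p = 0.657, adjusted p = 0.821). Per kilobase of exon the mean ratio was 14.8 in GDX and 14.5 in E2.

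Slc6a11, the GAT3 gene, was lower on average in E2 without passing the test after adjustment. Slc6a11 (ENSMUSG00000030307, chromosome 6, 114131241 to 114249952, plus strand, protein-coding) was at 348, 346, 341 and 379 CPM in GDX and at 307, 295 and 344 CPM in E2. E2 replicate 3 lay within the GDX range and the other E2 libraries lay below it. The means were 353 ± 17.2 CPM (SD, n = 4) and 315 ± 25.6 CPM (SD, n = 3). The log2 fold change was -0.16 ± 0.074 (SE; 95% interval -0.33 to -0.0024; edgeR adjusted p = 0.291). The astrocyte markers had lower means in E2 as well. Of the 2 GDX libraries with high astrocyte markers, replicate 4 was the highest for Slc6a11 (379 CPM). The other, replicate 1 (348 CPM), lay near replicates 2 and 3 (346 and 341 CPM). With the astrocyte score as a covariate the log2 fold change was -0.076 (edgeR adjusted p = 0.846), and without GDX replicates 1 and 4 it was -0.13 (edgeR adjusted p = 0.573). The score does not overlap between the groups, so its part cannot be told apart from that of the group. The GABA transporter genes Slc6a13 and Slc6a12 were low in most libraries. Slc6a13 was at 2.09 to 18.7 CPM in GDX and 2.37 to 3.03 CPM in E2, and Slc6a12 was at 0.137 to 3.24 and 0.198 to 0.989 CPM. Neither passed the test in edgeR (adjusted p = 0.531 and 0.822).

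**Figure D3:**
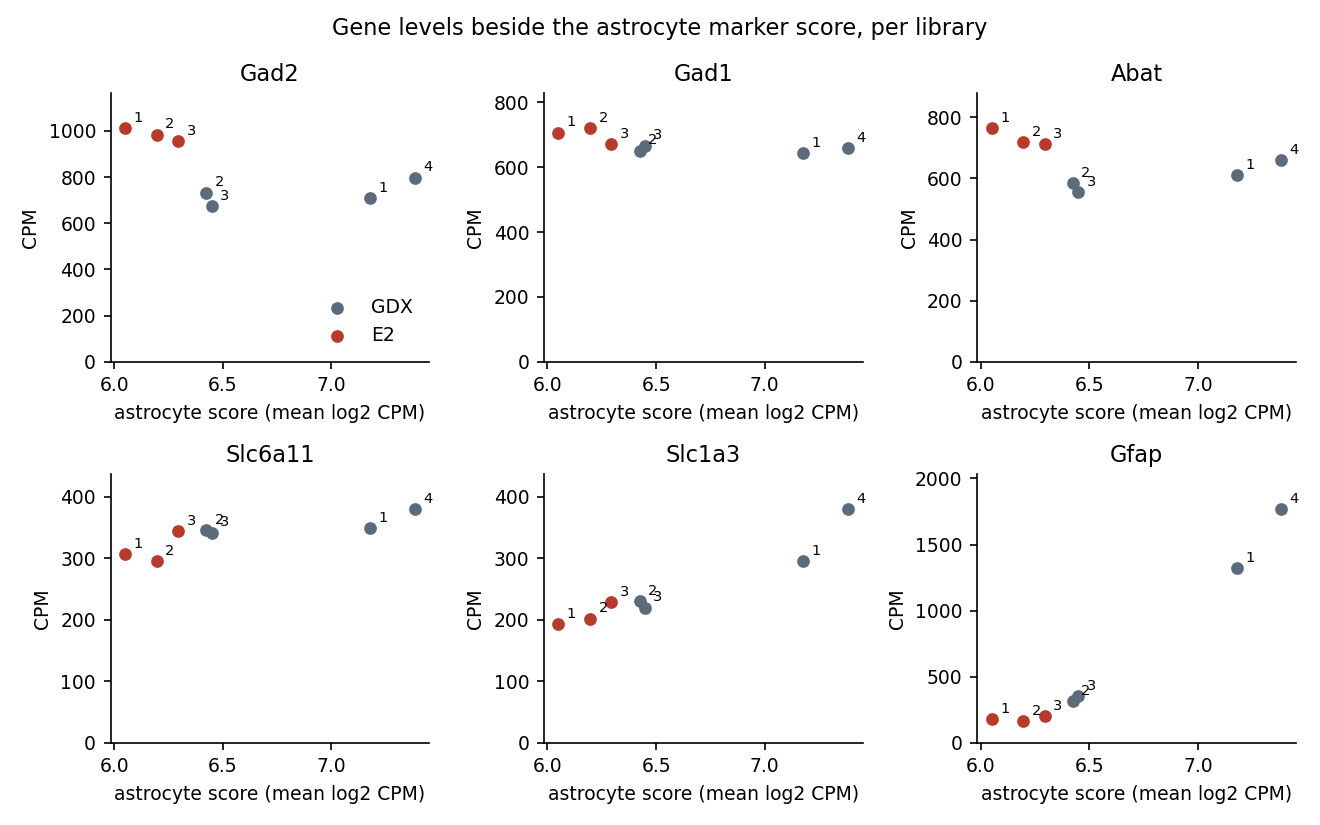
CPM (y axes, from 0) of 4 of the GABA genes and of the astrocyte genes Slc1a3 and Gfap against the astrocyte score (x axis, mean log2 CPM of 11 markers, which include Slc1a3 and Gfap) in the 4 GDX (grey) and 3 E2 (red) libraries, numbered by replicate. GDX replicates 1 and 4 have the highest scores (up to 7.38) and Gfap levels (1323 and 1765 CPM). Gad2 is at 673 to 797 CPM in GDX and at 956 to 1010.0 CPM in E2.

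The breakdown genes were both higher on average in E2, and neither passed the test. Abat (ENSMUSG00000057880, chromosome 16, 8513429 to 8621568, plus strand, protein-coding) was at 609.6, 585, 555 and 661 CPM in GDX and at 763, 717 and 712 CPM in E2. The groups did not overlap, with a gap of 51.1 CPM above GDX replicate 4, the highest of its group. The means were 603 ± 44.7 CPM (SD, n = 4) and 731 ± 28.1 CPM (SD, n = 3), a ratio of 1.21. The log2 fold change was 0.28 ± 0.073 (SE; 95% interval 0.12 to 0.44; edgeR adjusted p = 0.0587), just outside the threshold. Abat was called in 7 of 20 alternatives, among them DESeq2 (log2 fold change 0.27, adjusted p = 0.0144), limma-voom (0.29, adjusted p = 0.0120) and edgeR without GDX replicate 4 (0.32, adjusted p = 0.0129). With the astrocyte score as a covariate it was 0.40 (edgeR adjusted p = 0.0419), with the non-neuronal score it was 0.37 and not called (edgeR adjusted p = 0.118), and without GDX replicates 1 and 4 it was 0.35 (edgeR adjusted p = 0.0128).

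The ratio of Abat to decarboxylase counts had overlapping groups. Abat over Gad1 plus Gad2 was 0.451, 0.423, 0.414 and 0.454 in GDX and 0.445, 0.421 and 0.438 in E2, and all E2 values lay within the GDX range. The means were 0.436 ± 0.0199 (SD, n = 4) and 0.435 ± 0.0119 (SD, n = 3), with a log2 difference of -0.0028 (exact permutation p = 0.943, adjusted p = 0.943 over 5 ratios). Aldh5a1, the last step of the route (ENSMUSG00000035936, chromosome 13, 24907579 to 24937661, minus strand, protein-coding), was at 158, 138, 136 and 163 CPM in GDX and at 169.6, 153 and 151 CPM in E2. GDX replicates 1 and 4 and E2 replicate 1 were high, and the groups overlapped. The means were 149 ± 13.7 CPM (SD, n = 4) and 158 ± 10.01 CPM (SD, n = 3), with a log2 fold change of 0.087 ± 0.086 (SE; 95% interval -0.10 to 0.27; edgeR adjusted p = 0.693). Aldh5a1 shares exon sequence with 2 genes on the opposite strand, 4932702P03Rik and 9330162012Rik, which were at 0.788 and 3.54 CPM in GDX and at 1.07 and 3.15 CPM in E2, without TMM scaling.

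The order of the 6 genes by level was taken per kilobase of exon and, as a check, per kilobase of coding sequence. In GDX the order was Slc32a1 (137 CPM per kilobase), Gad2 (124), Gad1 (85.7), Abat (77.8), Slc6a11 (70.0) and Aldh5a1 (26.4). The ranges over libraries overlapped between Slc32a1 and Gad2, between Gad1 and Abat, and between Abat and Slc6a11. In E2 the order was Gad2 (167), Slc32a1 (144), Abat (94.3), Gad1 (91.4), Slc6a11 (62.5) and Aldh5a1 (28.0), and among neighbours the ranges of Abat and Gad1 alone overlapped. Among 18263 genes with an exon length, Gad2 ranked at place 291 in GDX and 211 in E2, and Slc32a1 at 253 and 256. Exon length here is the union over all annotated transcripts. Per kilobase of coding sequence the order was Gad2, Abat, Gad1, Slc32a1, Slc6a11 and Aldh5a1 in both groups, so the place of Slc32a1 depends on the length used.

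Genes that supply or surround GABA metabolism were described with 7 further lists of 52 genes, of which 51 were tested. Of these 51, 5 rose and 4 fell, which is 17.6% called, against 3.88% of all genes tested. The lists were chosen with earlier results of these data known and include Th, a kisspeptin cell marker. The higher share therefore describes these lists only and is no test of GABA-related genes. The median log2 fold change over the 51 was -0.044. In place of 4, the test called 1 gene lower without GDX replicate 2 or E2 replicates 2 or 3 singly, and 2 genes lower without GDX replicates 1 or 4 or E2 replicate 1 singly. With the astrocyte score as a covariate 3 rose and 1 fell.

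Among the 13 genes of glutamate and glutamine supply, 1 rose, 1 fell and 11 did not pass. Got1, the cytosolic aspartate aminotransferase, which can make glutamate, rose, with GDX libraries at 313 ± 15.1 CPM and E2 libraries at 424 ± 20.5 CPM (SD), a log2 fold change of 0.44 ± 0.068 (SE; edgeR adjusted p = 0.00292). Its call was lost with the astrocyte score (log2 fold change 0.37, edgeR adjusted p = 0.0646) or the non-neuronal score (0.38, edgeR adjusted p = 0.0906) as a covariate. Both scores differ between the groups without overlap, so their part cannot be told apart from that of the group. Slc38a5, a glutamine transporter gene, fell from 5.02 ± 1.95 to 1.88 ± 0.466 CPM (SD; log2 fold change -1.42, edgeR adjusted p = 0.0438), and this call was lost in 12 of 19 alternatives, among them each omission of a library other than GDX replicate 3. Gls2, a glutaminase gene, was at 25.7 ± 2.62 CPM in GDX and 26.2 ± 1.77 CPM in E2 (SD; edgeR adjusted p = 0.935). The list also holds Slc1a2 and Slc1a3, which are astrocyte markers; Slc1a3 was at 296, 229.9, 219.8 and 379 CPM in GDX and at 192, 202 and 229 CPM in E2.

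None of the 4 genes of the pyridoxal phosphate cofactor passed the test in edgeR, with 0 at an unadjusted p under 0.05 and 0 in DESeq2 and limma-voom. Pdxk, the pyridoxal kinase gene, was at 383 ± 13.8 CPM in GDX and 392 ± 15.5 CPM in E2 (SD; edgeR adjusted p = 0.865). None of the 4 genes tied to the membrane anchoring of GAD65 passed either. In DESeq2 and limma-voom 0 passed, and 1 was higher at an unadjusted p under 0.05, where the share of all genes was not taken. In that list, Zdhhc17, a palmitoyltransferase of GAD65, was at 94.8 ± 5.05 and 97.8 ± 14.5 CPM (SD; edgeR adjusted p = 0.879), and the chaperone gene Dnajc5 was at 427 ± 9.35 and 434 ± 4.98 CPM (SD; edgeR adjusted p = 0.885).

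The largest rise among the called genes of the lists was that of Maob, and GABA itself was not measured. Of 7 genes for other GABA and gamma-hydroxybutyrate enzymes, 2 rose and 0 fell. Maob, monoamine oxidase B, which takes part in making GABA from putrescine, was at 34.9, 32.2, 39.6 and 44.8 CPM in GDX and at 209, 196 and 155 CPM in E2. Every E2 library was far above the GDX libraries, with a log2 fold change of 2.30 ± 0.13 (SE), called in each of 20 alternatives (adjusted p of at most 0.00044). Odc1, ornithine decarboxylase, which makes putrescine, was at 118, 129, 138 and 169 CPM in GDX and at 283, 236 and 242 CPM in E2 (log2 fold change 0.87 ± 0.12 SE; edgeR adjusted p = 0.0013). The groups did not overlap, and the call was lost with the score of all non-neuronal markers as a covariate, where the log2 fold change was 0.84 (edgeR adjusted p = 0.0579). Since this score does not overlap between the groups either, its part cannot be told apart from that of the group. Aldh9a1 was at 69.3 ± 2.25 CPM in GDX and 72.3 ± 3.90 CPM in E2 (SD; edgeR adjusted p = 0.777). Aldh1a1, an aldehyde dehydrogenase gene, was at 50.3, 12.9, 15.5 and 65.5 CPM in GDX and at 15.9, 21.0 and 13.4 CPM in E2 (edgeR adjusted p = 0.504), with the high values in GDX replicates 1 and 4.

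Of 9 transcription factor genes of GABAergic neurons, 1 rose and 0 fell. Dlx2 was at 62.0, 78.4, 76.0 and 69.4 CPM in GDX and at 105, 108 and 107 CPM in E2 (log2 fold change 0.58 ± 0.090 SE; edgeR adjusted p = 0.00285). All E2 libraries were above all GDX libraries, and the call was lost with the astrocyte score (log2 fold change 0.43, edgeR adjusted p = 0.0697) or the non-neuronal score (0.41, edgeR adjusted p = 0.122) as a covariate. As for Got1, the part of these scores cannot be told apart from that of the group. Its neighbour Dlx1 was lower on average, at 221 ± 30.0 CPM in GDX and 182 ± 16.0 CPM in E2 (SD; log2 fold change -0.28, edgeR adjusted p = 0.209). Dlx1 shares 335 bases of exon with the antisense gene Dlx1as, from which unstranded reads cannot be told apart. Dlx5 was at 19.4 ± 2.19 and 20.1 ± 1.27 CPM (SD; edgeR adjusted p = 0.903).

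Of 11 tested genes of other transmitters, 1 rose and 2 fell. Slc17a8, which encodes VGLUT3, a vesicular glutamate transporter, was at 41.3, 49.3, 52.0 and 50.7 CPM in GDX and at 4.72, 4.81 and 5.22 CPM in E2, a log2 fold change of -3.30 ± 0.11 (SE). The groups were far apart and the call held in each of 20 alternatives (adjusted p of at most 4.14e-06). Th, tyrosine hydroxylase of dopamine synthesis and one of the kisspeptin cell markers, rose from 297 ± 43.8 to 551 ± 18.3 CPM (SD; log2 fold change 0.89). Slc18a2, the vesicular monoamine transporter gene, fell from 167 ± 25.4 to 112 ± 15.3 CPM (SD; log2 fold change -0.57, edgeR adjusted p = 0.0398), and its call was lost in 9 of 20 alternatives. Those 9 include leaving out GDX replicate 2, 3 or 4 or E2 replicate 2 or 3. Slc17a6 was at 49.9 ± 1.35 CPM in GDX and 55.0 ± 9.15 CPM in E2 (SD; edgeR adjusted p = 0.580), and Slc17a7, the VGLUT1 gene, at 1.28 ± 0.421 and 1.61 ± 0.382 CPM (SD; edgeR adjusted p = 0.752).

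**Figure D4:**
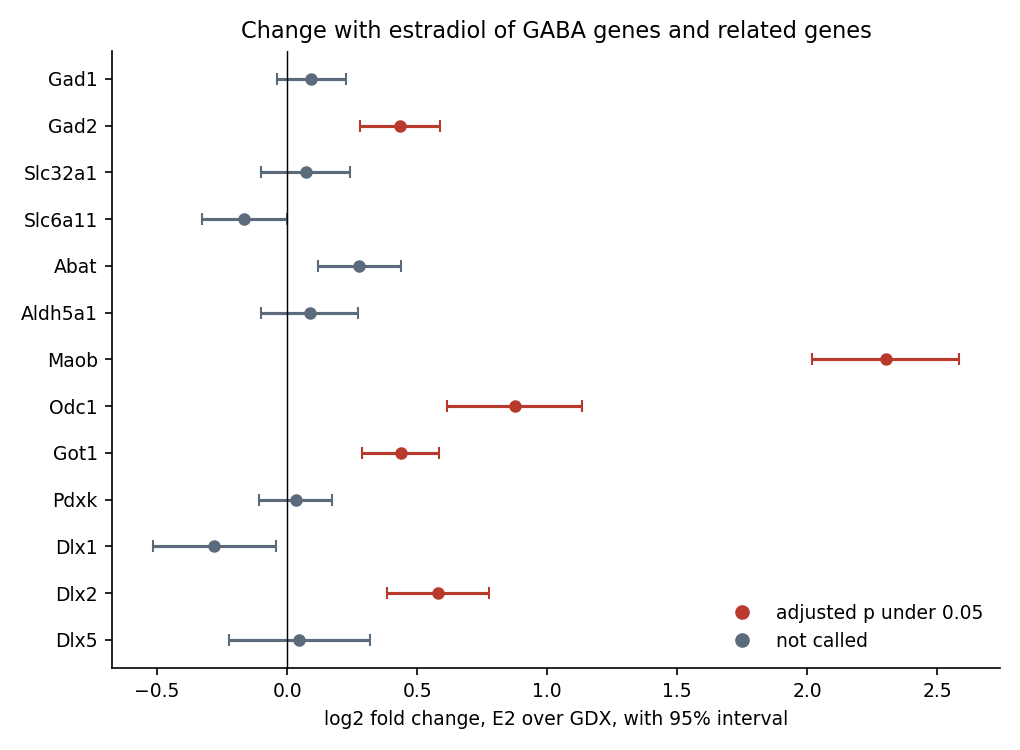
Log2 fold change, E2 over GDX, with its 95% interval (x axis) for the 6 GABA genes and 7 related genes from the fit over 18282 genes; red points passed an adjusted p under 0.05 and grey points did not. Gad2 (0.43), Got1 (0.44), Dlx2 (0.58), Odc1 (0.87) and Maob (2.30) passed and lie to the right of 0.

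The genes with the most similar profile over the 7 libraries were taken from 11499 protein-coding genes by Pearson's r of log2 CPM. These values share the group difference and the libraries, and with so many candidates high values of r are found for any gene, so they are given as a description. For Gad2 they were Prkacb, a catalytic subunit of protein kinase A (0.994), the protocadherin gene Pcdh20 (0.994) and the small GTPase gene Gem (0.990). For Gad1 they were Optn (0.995), Fkbpl (0.987) and Ddost (0.987), and for Abat Xrn2 (0.994), Disp3 (0.992) and the AMPA receptor subunit gene Gria1 (0.989). For Slc32a1 they were Sdc3 (0.974), Dmwd (0.962) and Zfp30 (0.960), for Slc6a11 Ctif (0.986), Ddi2 (0.982) and Ndc1 (0.976), and for Aldh5a1 Ccdc93 (0.993), Zfp719 (0.990) and Plod2 (0.987). No gene was on the list of more than 1 of the 6.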

How the data were processed

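RNA from tagged ribosomes was sequenced in 7 unstranded, polyadenylated libraries, each a pool, so p-values measure the spread between pools. The authors deposited expected counts per gene, of which 33.1% of non-zero values were not whole. Trimmomatic 0.38, STAR 2.6.0a, RSEM 1.3.0 and mm10 are named in the submitters' processing notes; the annotation is not given in the sources used here. Symbols and coordinates came from GENCODE vM21 (55203 genes matched). Expected counts were rounded and tested in R 4.3.3 with edgeR 4.0.16 (TMM, filterByExpr with a minimum count of 10, a total of 15 and a smallest group of 3, robust quasi-likelihood test, Benjamini-Hochberg over 18282 genes, adjusted p under 0.05 called). Log2 fold changes used a prior count of 0.125 and log2 CPM a prior count of 2. Ratios used the deposited counts and exact permutation tests. The procedure was tested on simulated data.

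The genes and lists were chosen with earlier results of these data known. Besides the 6 genes, the naming rule took from each list up to 4 called genes with the largest change and the first 2 not called, plus the 3 most similar genes by correlation (mean of at least 5 CPM, no predicted genes). Alternatives were DESeq2 size factors, upper-quartile factors or library sizes alone, no filter on low counts or one at a mean of 5 CPM, DESeq2 1.42.0, limma 3.58.1 (voom with quality weights), non-robust dispersions, a replicate block, the 2 marker scores as covariates, a threshold of 0.01, and the omission of each library; the joint omission of GDX replicates 1 and 4 was chosen after the data were seen. Some list genes named by the rule, and results that need them, are not reported here, though they count in the list totals. Overlapping genes are given without TMM scaling.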

Additional observations from a re-analysis of the deposited data

Results flagged for a closer look

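In 38 checks of the 4 GDX libraries, 5 had 1 library far from the other 3 (the gap to the nearest library, divided by the group's range, above Dixon's 95% critical value, which chance gives in about 1 in 20 checks). Slc6a13 had a gap of 0.928, with 18.7 CPM in GDX replicate 4 against 2.09 to 3.29 CPM in the others, and Slc6a12 a gap of 0.860, with 3.24 against 0.137 to 0.570 CPM in the same library. Aldh9a1 had a gap of 0.836, with 66.0 CPM in GDX replicate 2 against 70.0 to 70.8 CPM. Slc17a7 had a gap of 0.943, with 1.91 CPM in GDX replicate 1 against 1.04 to 1.09 CPM. The oligodendrocyte score had a gap of 0.831, at 8.05 in GDX replicate 1 against 7.07 to 7.24. None of the 6 GABA genes stood apart in this way.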

How the results depend on the processing

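Gad2 kept its call and Gad1, Slc6a11 and Aldh5a1 stayed uncalled with the same direction in all 20 alternatives. Abat, at an adjusted p of 0.0587, was called with no filter (log2 fold change 0.27), a mean of at least 5 CPM (0.27), DESeq2 (0.27), limma-voom (0.29), the astrocyte covariate (0.40) and without GDX replicates 1 and 4 (0.35). Leaving out single libraries gave 0.24 to 0.32 for Abat and -0.015 to 0.14 for Slc32a1, which turned without E2 replicate 3; Abat was called without GDX replicate 4. The log2 ratio of Abat to Gad1 plus Gad2 turned to 0.053 without GDX replicates 1 and 4 and ranged from -0.027 to 0.019 without single libraries; that of Slc32a1 to Slc17a6 ranged from -0.24 to 0.14.

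Genes higher and lower in E2 were 467 and 243; no filter gave 722 and 887, DESeq2 725 lower, limma-voom 398 lower, the non-neuronal covariate 226 and 97, the astrocyte covariate 304 and 137, and an adjusted p under 0.01 275 and 85. Without single libraries they were 268 to 591 and 96 to 428, with fewest without E2 replicate 1. Rises were 65.8% of calls, 52.2% with library sizes alone, 44.9% with no filter, 48.2% with DESeq2 and 56.1% without GDX replicate 3. In the 7 lists, 3 were higher with either covariate, and 1 was lower with the astrocyte covariate or at 0.01, 2 with the non-neuronal covariate and 1 to 3 without single libraries.

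The replicate numbers did not pair libraries (correlations of deviations -0.020, -0.038 and -0.055). GDX replicate 4 has no partner. Its number in the sample descriptions lies apart from the run of the other libraries, and the labels name no batch. With the replicate block, 421 were higher and 191 lower, and in the 7 lists 1 was lower; Gad2 was at 0.48 (edgeR adjusted p = 0.0072) and Abat at 0.33 (0.0519). The block turned Slc6a13 to 0.026, Slc6a12 to 1.08, Gls2 to -0.031, Dlx5 to -0.022 and the ratio of Abat to Gad1 plus Gad2 to 0.017.

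Other uncalled values changed sign. With the astrocyte covariate Slc6a13 was at 0.73, Slc6a12 at 1.61, Gls2 at -0.13, Dlx5 at -0.13 and Aldh1a1 at 0.79; with the non-neuronal covariate 0.39, 1.20, -0.089, -0.059 and 0.62; and without GDX replicates 1 and 4 0.030, 0.84, -0.081, -0.058 and 0.23. Slc6a12 was at 0.56 with limma-voom. With library sizes alone Gls2 was at -0.031, Pdxk at -0.028, Aldh9a1 at -0.0010, Dlx5 at -0.014, Zdhhc17 at -0.016 and Dnajc5 at -0.035. Ranges without single libraries were -1.58 to 0.012 for Slc6a13, -1.17 to 1.09 for Slc6a12, -0.031 to 0.084 for Gls2, -0.0010 to 0.055 for Pdxk, -0.022 to 0.11 for Dlx5, -0.081 to 0.12 for Zdhhc17 and -0.00089 to 0.23 for Slc17a6. The microglia score difference was -0.031 without GDX replicates 1 and 4, -0.057 with library sizes alone and -0.095 to 0.067 without single libraries; the oligodendrocyte score difference was -0.32 to 0.0062. The kisspeptin score kept its direction. The cause of these changes was not tested. Genes with a mean under 5 CPM (Slc6a12, Slc38a5 and Slc17a7) have no value under that filter. With 4 and 3 pools, the intervals of Gad1, Slc32a1 and Aldh5a1 include 0, so small changes of these genes can be neither shown nor excluded.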
